A study of Mus musculus with 6 samples.

Results

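The genes described here are 10 that build the triad of the skeletal muscle fibre and couple excitation to calcium release: Ryr1, Cacna1s, Cacnb1, Cacng1, Stac3, Jph1, Jph2, Bin1, Trdn and Srl. They were chosen by name for their place in this apparatus, and all 10 were among the 14619 genes of the deposited expression table. At the triad, a transverse tubule of the surface membrane lies between a pair of terminal cisternae of the sarcoplasmic reticulum. The voltage sensor in the tubule (the L-type channel Cav1.1) responds to the action potential and opens the ryanodine receptor of the facing cisterna, and the calcium released there starts contraction. Junctophilins hold the membranes together, amphiphysin 2 shapes the tubule, and triadin and sarcalumenin belong to the calcium-handling proteins of the reticulum.

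The tibialis anterior, a fast muscle of the lower hind leg, gave 3 control (HSA-Cre Tg/+; Acin1 +/+, replicates 1, 2 and 3) and 3 knockout RNA libraries (HSA-Cre Tg/+; Acin1 F/F, replicates 5, 7 and 8). The study asked what a fibre-specific deletion of Acin1, which encodes a nuclear splicing-associated protein, does to expression and splicing in muscle. All 6 libraries carried the Cre transgene under the human skeletal actin promoter, which is active in muscle fibres, so the other cells of the muscle keep Acin1. The labels used here give no age and do not tie libraries to individual mice. The p-values therefore rest on how far these libraries differ among themselves, and part of that may be technical.

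Each library held between 21084522 and 29301125 reads in the listed genes. Acin1 stood at 1495 ± 74.3 scaled reads (SD, n = 3) in control and 1196 ± 0.775 in knockout muscle, a log2 change of -0.32 (limma, adjusted p = 0.0266). The fibre genes Acta1, Ckm and Myh4 were each among the most abundant transcripts, with means from 299300 to 613700 scaled reads in control libraries. Of the marker lists for other cells, 4 of 12 endothelial genes, 4 of 11 smooth muscle and pericyte genes and 4 of 10 Schwann cell and nerve genes were lower in knockout muscle. Macrophage, fibro-adipogenic, satellite cell, adipocyte and cardiac lists had 0 called genes of 12, 10, 9, 6 and 3 measured (the smallest adjusted p of each list belonged to Cd68 and Cd163, Ly6a and Dpp4, Pax7 and Calcr, Fabp4 and Plin1, and Myh6 and Ryr2). The fast fibre list also had 0 of 10, led by Myh2 and Myh1, and the slow fibre list had 2 higher and 1 lower of 10, led by Myl3 and Sln. Of 14 genes of neonatal and regenerating fibres 9 were higher and 0 lower, led by Ankrd1 and Igfn1.

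Srl and Jph1 were lower in knockout muscle, at 76.2% and 77.1% of the control mean, and the other 8 genes did not pass the threshold. The called genes are thus 2 of 10, beside 11.3% of all genes (adjusted p under 0.05 by limma over 14619 genes), and both were lower, beside 5.51% of all genes called lower and 5.74% called higher. In splicing, a 72-base exon of Bin1 was included more often and a 1311-base coding exon of Srl less often in every knockout entry. Both were called by limma with a trend on the reads of the rarer form and by the deposited rMATS FDR, but not with the trend on total reads first planned (adjusted p 0.377 and 0.562) or without a trend (0.479 and 0.635). Across the 10 genes the median log2 change was -0.12, against -0.01 over all genes, and the median size of the change regardless of sign was 0.20, against 0.22 over all genes. The libraries of the groups did not overlap for 4 genes (3 lower, 1 higher), a count to be read beside 35.4% of all genes.

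**Figure D1:**
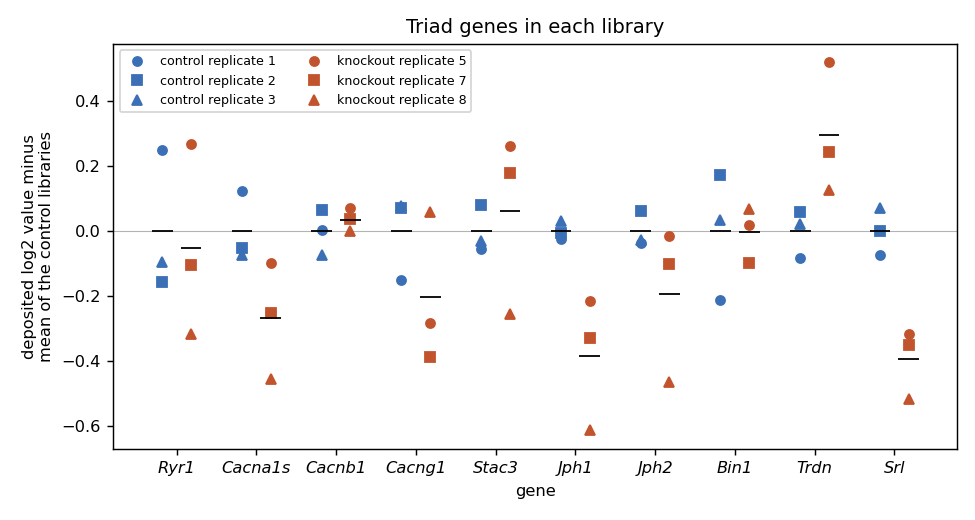
Deposited log2 value of each of the 10 genes in each library, minus the mean of the 3 control libraries; horizontal lines are group means. Jph1, Srl and Cacna1s lay lower in all 3 knockout libraries than in any control library, Trdn lay higher, and knockout replicate 8 was the lowest of the 6 libraries for 6 of the 10 genes.

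**Figure D2:**
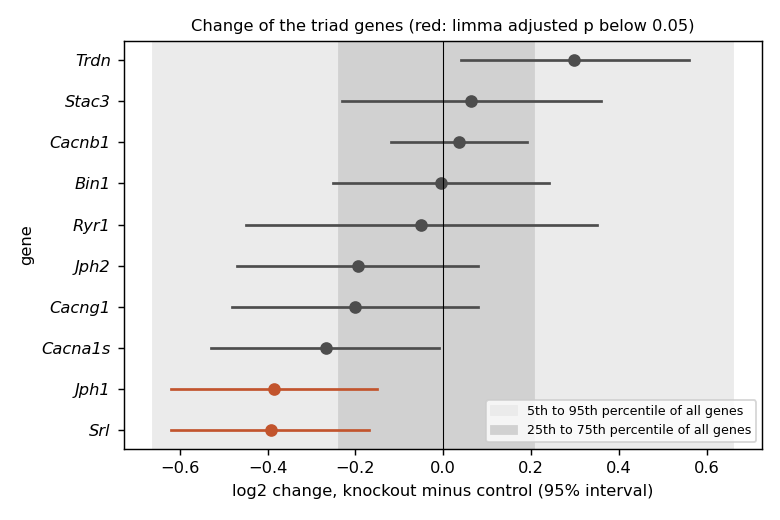
Log2 change of each gene (knockout minus control) with its 95% interval from limma, over grey bands for the middle of the distribution of all 14619 genes. Srl and Jph1 (red) passed the threshold; the intervals of Cacna1s and Trdn left out 0, but their adjusted p did not pass.

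Values below are scaled reads: read counts divided by the library factor of the deposited table. Levels of different genes are set side by side per kilobase of the longest protein-coding transcript. That scaling assumes even coverage of the whole length, which did not hold for Ryr1 or Srl. Ryr1 had few reads at its 5′ end, and a long exon of Srl was often skipped, as given below. The order is therefore approximate. In it Srl was the highest in control muscle with 8980 ± 449 scaled reads per kb (SD, n = 3). By its mean over all 6 libraries Srl ranked 118th of 12891 genes with a length. Then came Ryr1 (range over control libraries 4210 to 5590 per kb), Jph2 (4380 to 4690), Trdn (4100 to 4530), Cacna1s (3660 to 4190), Cacng1 (3240 to 3800) and Bin1 (2610 to 3410). From Ryr1 to Bin1 the ranges of neighbours in this order overlapped. Jph1 (1970 to 2050), Stac3 (1640 to 1800) and Cacnb1 (906 to 996) followed, with ranges that met none of their neighbours. In knockout muscle Trdn, at 5370 ± 767 per kb, stood above Ryr1 at 4600 ± 962, with ranges that overlapped. Fewer fibres and less RNA per fibre cannot be told apart in whole muscle.

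Cacna1s encodes the pore and voltage-sensing subunit of Cav1.1. It held 26210, 23160 and 22850 scaled reads in control replicates 1, 2 and 3 and 22460, 20210 and 17510 in knockout replicates 5, 7 and 8. Every knockout library lay below every control library, by a narrow margin between knockout 5 and control 3. The log2 change was -0.27 (SE 0.113, 95% interval -0.53 to -0.01), with an unadjusted p of 0.0427 and an adjusted p of 0.155 by limma, so the difference did not pass the threshold.

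The best known splice choice of Cacna1s concerns exon 29, in the linker of the fourth voltage-sensing domain, which embryonic muscle skips and adult muscle includes. The exon has 57 bases in the annotation, and its sequence is shown because its inclusion reads as a marker of the adult form. Exon letters are capitals and the 20 bases on each side belong to the neighbouring exons (GENCODE M21 transcripts, GRCm38, chromosome 1).
Cacna1s 57-base exon: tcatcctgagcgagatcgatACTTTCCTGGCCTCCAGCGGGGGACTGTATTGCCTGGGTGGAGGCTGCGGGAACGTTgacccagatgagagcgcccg
Inclusion was 99.9%, 100% and 99.8% in the 3 control entries and 100%, 99.8% and 99.9% in the 3 knockout entries, where an entry is the junction count of 1 library that the splicing table does not name. At most 2 skipping reads were counted in any entry, against 956 to 1506 inclusion reads. Skipping of this exon, the embryonic form, was thus at the limit of detection in all 6 entries. The event of Cacna1s with the smallest deposited p, an alternative 5′ splice site of a 107-base exon, had an rMATS p of 0.702 in the authors' deposited table.

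Cacnb1 encodes the intracellular beta subunit that carries the channel to the triad. Its values were 3244, 3381 and 3075 in control and 3394, 3314 and 3229 in knockout libraries. The groups overlapped, and this was the narrowest interval of the 10 genes (log2 change 0.04, 95% interval -0.12 to 0.19, adjusted p = 0.774, limma). Its alternative 5′ splice site with the smallest p included the longer form at 7.94% ± 1.44 in control and 6.0% ± 1.19 in knockout entries (SD, n = 3 each, exact permutation p = 0.2, rMATS p = 0.133 in the authors' deposited table).

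Cacng1 encodes the gamma subunit of Cav1.1. It stood at 4045, 4722 and 4740 in control and 3692, 3436 and 4683 in knockout libraries. Knockout replicate 8 lay among the controls while knockout 5 and 7 lay below them (log2 change -0.20, 95% interval -0.48 to 0.08, adjusted p = 0.309, limma). Stac3 encodes the adaptor that Cav1.1 needs to reach the membrane and to couple to the ryanodine receptor. Its values were 2930, 3219 and 2982 in control and 3653, 3442 and 2548 in knockout libraries, so that the knockout libraries included both the highest and the lowest value (log2 change 0.06, 95% interval -0.23 to 0.36, adjusted p = 0.788, limma). Cacng1 and Stac3 had no splicing event near the threshold, with smallest rMATS p-values of 0.26 and 1.0 in the authors' deposited table.

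Ryr1 encodes the calcium release channel itself. Control replicates 1, 2 and 3 held 85780, 64660 and 67480 scaled reads and knockout replicates 5, 7 and 8 held 86810, 67110 and 57900. Control 1 and knockout 5 stood together above the other 4 libraries, and the groups overlapped (log2 change -0.05, SE 0.176, 95% interval -0.45 to 0.35, adjusted p = 0.881, limma). Without control replicate 1 the log2 change was 0.08, and without knockout replicate 8 it was also 0.08, so its sign was not settled.

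Junction reads along Ryr1 showed that the libraries differed at the 5′ end of the transcript. In 12 exons included at 95% or more in every entry, the most 5′ exon held 539 inclusion reads in control entry 1 but 27 and 32 in control entries 2 and 3. The knockout entries held 479, 309 and 367 there. At the most 3′ exon, 96.4 kb downstream, all 6 entries held between 4686 and 5915.

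Summed over the first 3 exons and set against the remaining 9, the 5′ reads were 5.56% in control entry 1, 0.75% and 1.02% in control entries 2 and 3, and 5.27%, 4.08% and 4.72% in knockout entries. Control entries 2 and 3 thus stood apart from the other 4. Among 293 genes with at least 4 such exons, Ryr1 ranked first for this drop of control entries 2 and 3 against control entry 1; the ranking was made after the Ryr1 values were seen and is a description only.

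Over the 9 exons from 48.1 kb on, where the control entries were alike, Ryr1 junction reads were 6010, 5830 and 6350 RPM in control and 5520, 4850 and 4390 RPM in knockout entries. RPM here are reads per 1000000 junction reads of all covered skipped-exon events of the entry. All knockout entries were lower, at 81.1% of the control mean, and the groups were apart in 7 of these 9 exons. At the first 3 exons the same quantity was 334.0, 43.7 and 64.6 in control and 291.0, 198.0 and 207.0 in knockout entries, which overlapped. The split of the exons was made after the values were seen and was given no test. Exons of the same transcript are not independent, and the share of apart exons over all genes was not counted. At the gene level, which is scaled in another way, knockout muscle stood at 97.2% of control (adjusted p = 0.881, limma).

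**Figure D3:**
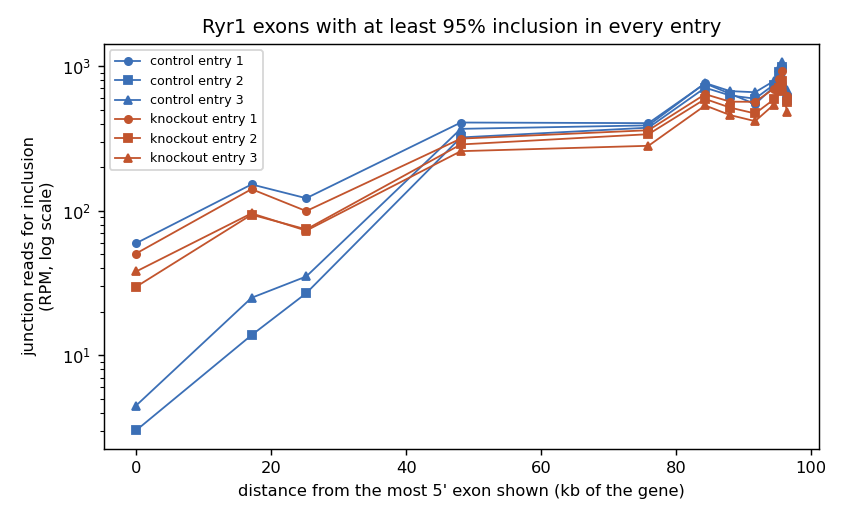
Inclusion junction reads in RPM (log scale) at 12 Ryr1 exons against their distance from the most 5′ of them, with 1 line per entry. Control entries 2 and 3 lay below the other 4 entries at the first 3 exons, and from 48.1 kb on the control entries ran together, mostly above the knockout entries.

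Ryr1 also has a pair of very short in-frame exons whose use is regulated in muscle. They are shown because each adds only a few residues to the channel, with exon letters in capitals and 20 bases of each neighbouring exon (GENCODE M21 transcripts, GRCm38, chromosome 7).
Ryr1 18-base exon: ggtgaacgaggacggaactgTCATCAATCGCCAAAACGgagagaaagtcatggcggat
Ryr1 15-base exon: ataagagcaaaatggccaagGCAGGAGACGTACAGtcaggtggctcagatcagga
The 18-base exon, at chr7:28744344-28744361 (GRCm39, exon 83 of the matched transcript), was included at 69.1%, 65.9% and 65.1% in control and 75.1%, 74.1% and 70.1% in knockout entries. The knockout entries were all higher, with a change of 0.44 in the log2 odds of inclusion (SE 0.145). The adjusted p was 0.08 in limma over all events, which did not pass, and the FDR was 0.0489 in the authors' deposited table. Without knockout entry 3 the limma adjusted p was 0.0366, and without each of the other 5 entries it ran from 0.0866 to 0.385. The 15-base exon (chr7:28755659-28755673) was included at 27.7%, 21.8% and 27.7% in control and 30.5%, 28.4% and 22.2% in knockout entries, which overlapped (log2 odds change 0.09, SE 0.148, adjusted p = 0.87, limma).

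Trdn encodes triadin, which anchors calsequestrin to the ryanodine receptor. Control libraries held 18500, 20440 and 19880 and knockout libraries 28090, 23220 and 21380 scaled reads. All knockout libraries were above all controls, with knockout 5 the farthest, and the mean was 124% of control (log2 change 0.30, SE 0.114, unadjusted p = 0.0295, adjusted p = 0.124, limma). The adjusted p was 0.0366 when libraries were scaled by total reads, and 0.0579 in the authors' deposited table. Junction reads over its 28 exons with at least 95% inclusion were 2060, 2050 and 2190 RPM in control and 2840, 2280 and 2420 in knockout entries. The entries of the groups were apart, with knockout higher, in 17 of the 28 exons and with knockout lower in 0. These exons belong to the same gene and were read in the same entries, so the count repeats the gene-level difference. The share of apart exons over all genes was not counted.

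Triadin is made in many splice forms from an unusually exon-rich gene, and Trdn had 68 of the 130 listed rMATS events of the 10 genes. Of its 65 covered events 7 passed by the FDR of the authors' deposited table, and 0 passed in limma on the entries. These 7 events rested on 4 distinct sets of skipping reads, and 3 of them shared a set in which 13 of the reads came from knockout entry 3 and at most 1 from any other entry. An rMATS event set a 48-base exon against a 45-base exon. Of their length-scaled junction reads, the former held 68.9%, 61.8% and 63.1% in control and 55.4%, 56.5% and 56.5% in knockout entries. This share is not the inclusion of either exon, since both lie in the same annotated transcript. Mean inclusion in control and knockout entries was 93.3% and 91.0% for the 48-base exon, and 100% and 99.9% for the 45-base exon. The groups were apart for the share of junction reads, with a log2 odds change of -0.52 (SE 0.164, limma adjusted p = 0.0598, deposited FDR 0.0235 in the authors' deposited table). Without control entry 2 its limma adjusted p was 0.0368, and without each of the other 5 entries it ran from 0.0572 to 0.45. The other named Trdn events overlapped between groups: the share of a 210-base exon set against a 60-base exon (96.0% ± 0.453 and 93.8% ± 2.89, SD, n = 3), a 30-base exon (98.8% ± 0.51 and 96.6% ± 1.7) and a 51-base exon (99.5% ± 0.837 and 94.8% ± 6.99). Taken alone, the 210-base and 60-base exons each had a mean inclusion of 99.3% or more in both groups. Their share is thus not a choice between them.

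Jph1 encodes junctophilin 1, which spans the gap between tubule and reticulum. Control libraries held 9464, 9587 and 9835 scaled reads and knockout libraries 8294, 7673 and 6297. Controls were tightly grouped, every knockout library was below them, and knockout 8 was the lowest. The log2 change was -0.39 (SE 0.105, 95% interval -0.62 to -0.15) with an adjusted p of 0.0498 in limma and 0.012 in the authors' deposited table. The call was lost without any 1 of control replicates 1, 2 and 3 and knockout replicates 7 and 8 (limma adjusted p 0.0596 to 0.143), without the trend (0.119), with limma-voom (0.056) and with 1 added in place of 4 (0.0507), while the log2 change ran from -0.27 to -0.47 over all 6 omissions.

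Jph1 had no rMATS event near the threshold. That with the smallest p set its 644-base exon against its 119-base exon. The former held 46.1% ± 3.22 and 44.3% ± 4.46 of their length-scaled junction reads (SD, n = 3, exact permutation p = 0.6, rMATS p = 0.482 in the authors' deposited table). Taken alone, each exon had a mean inclusion of 99.6% or more in both groups, so this share is not a choice between them. Jph1 held the only CASH event of the 10 genes with an FDR under 0.05, beside 0.0465% of all CASH events. This was an alternative end, at chr1:17067184-17067264 (GRCm39), which begins 519 bases into a 2622-base exon. In pooled reads 689 of 896 junction reads in control and 244 of 447 in knockout muscle were of the inclusion form, or 76.9% (exact 95% binomial interval 74.0% to 79.6%) and 54.6% (49.8% to 59.3%). The FDR was 0.00316 in the authors' deposited table. The pooled knockout column holds the reads of 2 of the 3 knockout libraries, and pooled reads carry no spread between libraries, so the intervals cover counting error only.

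Jph2 encodes the second junctophilin of muscle, which is shared with the heart. Its values were 18440, 19760 and 18550 in control and 18720, 17650 and 13700 in knockout libraries. Knockout 5 lay among the controls and knockout 8 far below them, so that the difference did not pass (log2 change -0.19, 95% interval -0.47 to 0.08, adjusted p = 0.328, limma). Jph2 had 0 rMATS events. Its CASH event with the smallest p, an alternative start, had an FDR of 0.999 in the authors' deposited table.

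Bin1 encodes amphiphysin 2, which curves membranes into transverse tubules. Control libraries held 6271, 8194 and 7441 scaled reads and knockout libraries 7356, 6780 and 7607. All 3 knockout values fell within the control range (log2 change 0.00, SE 0.106, 95% interval -0.25 to 0.24, adjusted p = 0.987, limma).

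A splicing difference was found in Bin1. A 72-base in-frame coding exon, at chr18:32564724-32564795 (GRCm39), held 232, 261 and 194 inclusion and 418, 456 and 370 skipping reads in the control entries. The knockout entries held 330, 404 and 469 inclusion and 348, 326 and 387 skipping reads. Inclusion was 24.3%, 24.9% and 23.3% in control and 35.4%, 41.8% and 41.2% in knockout entries after scaling for the length of each form. The entries of the groups were far apart, and the log2 odds of inclusion were higher by 1.03 (SE 0.151, adjusted p = 2.52e-09 by limma, FDR 2.45e-09 in the authors' deposited table). The call was lost with the planned trend on total reads (limma adjusted p 0.377) and without a trend (0.479).

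Both forms differed. Inclusion reads were 27.4 ± 1.84 RPM in control and 40.8 ± 7.02 RPM in knockout entries (SD, n = 3), without overlap. Skipping reads were 49.8 ± 3.12 and 36.1 ± 4.36 RPM, also without overlap. In the pooled CASH reads the same exon was included at 40.5% in control and 57.6% in knockout muscle, without scaling for form, with an FDR of 0.104 in the authors' deposited table. A 129-base exon upstream was rare. Counted against reads that join the exon before it straight to the 72-base exon, it was included at 4.46%, 4.19% and 3.35% in control and 1.99%, 1.71% and 1.57% in knockout entries. The knockout entries were all lower, on 9 or 10 inclusion reads each (deposited FDR 0.0461 in the authors' deposited table, limma adjusted p = 0.229). Those skipping reads belong to the 72-base form and stood at 158% of control, while the inclusion reads were 1.46 ± 0.172 and 0.983 ± 0.0453 RPM (SD, n = 3). Counted with the exon after the 72-base exon as its neighbour, the 129-base exon was included at 1.34% ± 0.121 and 1.08% ± 0.118, and the groups overlapped. The rMATS event that sets the 129-base against the 72-base exon had an FDR of 0.0271 in the authors' deposited table. Its limma adjusted p was 0.188, and its reads for the 72-base form are the inclusion reads given above.

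Muscle adds to amphiphysin 2 a short exon that encodes a phosphoinositide-binding motif. CASH listed a 48-base cassette exon of Bin1 (chr18:32556292-32556339, GRCm39) with inclusion of 99.2% of pooled junction reads in control and 97.5% in knockout muscle (FDR 0.999 in the authors' deposited table). Whether it is that muscle exon was not settled from the annotation used.

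Srl encodes sarcalumenin, a calcium-binding glycoprotein in the lumen of the reticulum. Control libraries held 42670, 44890 and 47160 scaled reads and knockout libraries 36080, 35200 and 31400. Every knockout library was clear of every control library. The log2 change was -0.39 (SE 0.1, 95% interval -0.62 to -0.17), with an adjusted p of 0.041 in limma and 0.000876 in the authors' deposited table. The call was lost without any 1 of control replicates 1, 2 and 3 and knockout replicates 7 and 8 (limma adjusted p 0.0638 to 0.141) and without the trend (0.0729), while the log2 change stayed between -0.33 and -0.43 over all 6 omissions.

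The Srl gene makes a long form, sarcalumenin, and a shorter glycoprotein that lacks its acidic part. The exon that changed, at chr16:4314269-4315579 (GRCm39, exon 2 of the matched transcript), has 1311 bases, which is a whole number of codons, and makes up 48.0% of the coding bases of that transcript. Of its 436 whole codons 25.5% encode an acidic residue, against 13.9% of the codons outside it, and it holds 0 stop codons. The first 89 bases and the most acidic run of 60 codons (23 acidic, from codon 314 of the exon) are shown so that its composition can be seen, with codons for aspartate and glutamate in capitals (GENCODE M21 transcripts, GRCm38, chromosome 16).
Srl exon start: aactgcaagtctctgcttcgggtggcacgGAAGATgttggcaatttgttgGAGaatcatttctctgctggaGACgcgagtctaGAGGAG
Srl exon most acidic stretch: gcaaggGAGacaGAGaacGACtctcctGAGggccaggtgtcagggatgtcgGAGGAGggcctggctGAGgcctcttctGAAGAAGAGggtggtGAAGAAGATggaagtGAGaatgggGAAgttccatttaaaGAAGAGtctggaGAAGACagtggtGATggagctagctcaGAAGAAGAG

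This exon held 1684, 1203 and 1051 inclusion and 934, 759 and 718 skipping reads in the control entries. The knockout entries held 806, 900 and 700 inclusion and 766, 887 and 711 skipping reads. Inclusion in this event was 47.4%, 44.2% and 42.3% in control and 34.5%, 33.7% and 33.0% in knockout entries, so the groups were well apart. The log2 odds of inclusion were lower by 0.66 (a change of -0.66, SE 0.122, adjusted p = 8.51e-06 by limma, FDR 6.37e-05 in the authors' deposited table). The call was lost with the planned trend on total reads (limma adjusted p 0.562) and without a trend (0.635).

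Inclusion reads of the exon were 156.0 ± 26.6 RPM in control and 81.4 ± 7.82 in knockout entries (SD, n = 3), or 52.1% of control, without overlap. Skipping reads were 96.5 ± 9.78 and 80.0 ± 5.99 RPM, or 82.9% of control, with overlap. A second event for the same exon differed only in the boundary of a neighbouring exon (4311741 in place of 4311744). It gave 78.6% ± 1.12 and 74.1% ± 1.84 inclusion and did not pass (limma adjusted p = 0.559, FDR 0.399 in the authors' deposited table). Each event counts skipping reads of its own boundary only, so neither percentage is the inclusion of the exon over all its reads. Pooled CASH reads gave 58.9% in control and 47.7% in knockout muscle, without scaling for form, with an FDR of 0.999 in the authors' deposited table.

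**Figure D4:**
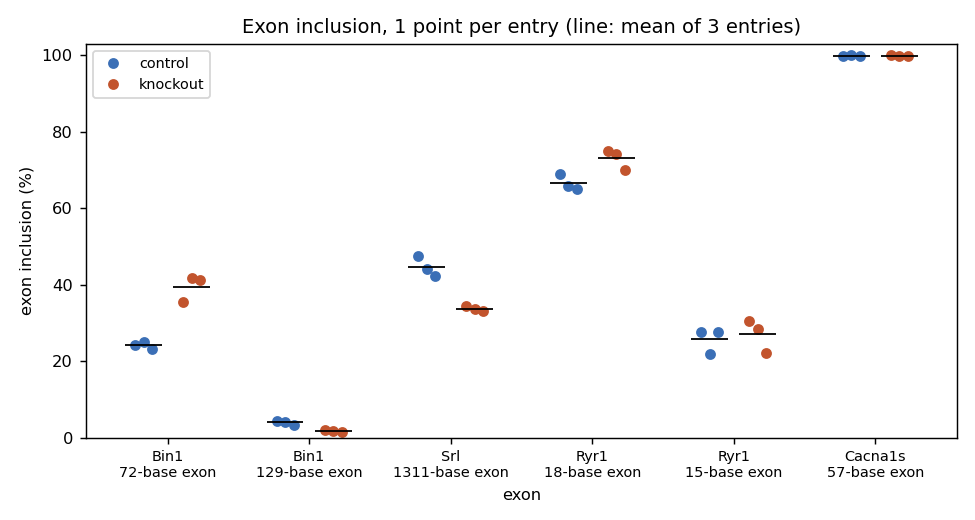
Inclusion of 6 named exons, with 1 point for each of 3 entries per group and a line at the mean. The Bin1 72-base exon rose from between 23.3% and 24.9% to between 35.4% and 41.8%. The Srl exon, in its called event, went from between 42.3% and 47.4% to between 33.0% and 34.5%. The Cacna1s exon stayed above 99% in all entries.

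Over all 10 genes, 123 of 130 rMATS events had a mean of at least 20 junction reads per entry. Of these, 2 passed in limma on the entries, the Bin1 72-base and Srl exons, beside 2.59% of all covered events. These are 2 genes with a called event, beside 5.69% of all genes with covered events. By the deposited FDR 12 passed, in Trdn (7), Bin1 (3), Ryr1 (1) and Srl (1), beside 3.44% of all covered events. These are 4 genes, beside 7.99% of all genes with covered events. Of 90 covered skipped-exon events, 75 had inclusion above 95% in both groups. Trdn gave 47 of the 90, and some events repeat an exon with other neighbours, so this is not a share of exons. The limma test of events takes its spread from events with like reads of the rarer form, since the spread of single events added nothing to that estimate. With the trend on total reads first planned, 0 of the 123 events and 33 of all 18626 passed, and without a trend 0 of 18626 passed. The smallest p that the exact permutation test allows for 3 against 3 entries is 0.1, which all events named as apart reached.

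The wider pathway was read from 4 lists of 86 genes, of which 81 were measured. Of the 71 measured genes that are not among the 10, 10 were called (14.1%, beside 11.3% of all genes), 3 higher and 7 lower, with a median log2 change of -0.08. Counting the triad genes, 12 pathway genes were called, but 1 without any 1 of the control libraries, 5 without knockout replicate 7 and 2 without the trend, against 13 without knockout replicate 5 and 10 without knockout replicate 8.

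Among 15 measured voltage sensor subunits and relatives, 0 were higher and 2 lower. Cacna1h, a T-type channel, went from 144.2 ± 9.41 to 90.86 ± 18.7 scaled reads (SD, n = 3, log2 change -0.66, adjusted p = 0.0376, limma). Cacna1c, the cardiac and smooth muscle L-type channel, went from 117.1 ± 7.35 to 79.16 ± 9.85 (log2 change -0.55, adjusted p = 0.0475, limma). In the authors' deposited table Cacna1c did not pass (adjusted p = 0.0997). The next smallest adjusted p belonged to Stac (0.0695), Cacna1s and Cacna2d3 (0.305). Both called channels had far fewer reads than Cacna1s. Of 11 smooth muscle and pericyte markers 4 were called lower, with Tagln at a log2 change of -0.45 and Rgs5 at -0.49. Acta2 (-0.15) was not called, and Cnn1 (0.07) and Des (0.19) were higher but not called. The list without Des, which fibres also express in quantity, summed to between 20260 and 21970 scaled reads in control libraries. In knockout libraries it summed to between 15310 and 17970, and Rgs5 alone went from 9200 ± 283 to 6568 ± 769 (SD, n = 3). With Des the sums overlapped (69180 to 72520 and 69280 to 76190). The part of these cells in the channel result was not tested.

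Among 23 measured genes of the calcium release complex, 1 was higher and 0 lower. S100a1, a small calcium-binding protein that binds the ryanodine receptor, held 1595, 1758 and 1535 in control and 2101, 2143 and 2673 in knockout libraries. The groups were apart, with a log2 change of 0.49 (adjusted p = 0.0246, limma). Jsrp1, a junctional protein that links the release channel and the voltage sensor, missed the threshold narrowly (3742 ± 325 and 4939 ± 652, SD, n = 3, adjusted p = 0.0502, limma). In the authors' deposited table Jsrp1 passed (adjusted p = 0.0114). Tmem38b (adjusted p = 0.0967), a potassium channel of the reticulum, and Calm3 (0.103), a calmodulin gene, did not pass in limma, with log2 changes of -0.34 and -0.27.

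Among 22 measured genes of the junction and the tubule, 1 was higher and 1, Jph1, lower. Popdc3, a membrane protein of striated muscle, held 850.3, 849.9 and 1044 in control and 1345, 1421 and 1558 in knockout libraries. All knockout libraries were above all controls (log2 change 0.66, SE 0.103, adjusted p = 0.00913, limma). Cav3, the muscle caveolin, had a log2 change of 0.46 and an adjusted p of 0.055 in limma, against 0.0158 in the authors' deposited table. Ehd4 (0.128) and Speg (0.164) had the next smallest adjusted p, with log2 changes of 0.38 and -0.21.

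Among 21 measured genes of calcium uptake and store refilling, 1 was higher and 6 lower. Sln, the small inhibitor of the calcium pump, stood at 25.79, 23.03 and 20.01 in control and 121.7, 314.5 and 1429 in knockout libraries, in each of which it was higher but to very different extents (log2 change 3.84 on the scale with 4 added, adjusted p = 0.015, limma). The lower genes included, beside Srl, Stim2 (log2 change -0.59), a calcium sensor of the reticulum, Camk2a (-0.48), a calmodulin-dependent kinase, Atp2a3 (-0.70), a calcium pump found largely outside fibres, and Slc8a3 (-0.36), a sodium-calcium exchanger. The adjusted p-values of these 4 ran from 0.0252 to 0.0432 (limma). Stim1 (adjusted p = 0.0729) and Orai1 (0.0815), the partners in store-operated entry, did not pass, with log2 changes of -0.24 and 0.37. The endothelial list had 4 of 12 genes called lower, with Tie1 and Tek at log2 changes of -0.44 and -0.51. Esam (-0.14) and Emcn (-0.16) were not called, and Cldn5 (0.02) was higher but not called. The summed endothelial list ranged from 13940 to 14750 in control and 10210 to 12560 in knockout libraries. Of 10 Schwann cell and nerve markers, 4 were called lower, with Prx at a log2 change of -0.66. Ncam1 (0.85) and Erbb3 (0.15) of this list were higher but not called. The summed list ranged from 2082 to 2839 in control and 1658 to 1955 in knockout libraries. The part of the endothelial, Schwann cell and nerve markers in the results was not tested.

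**Figure D5:**
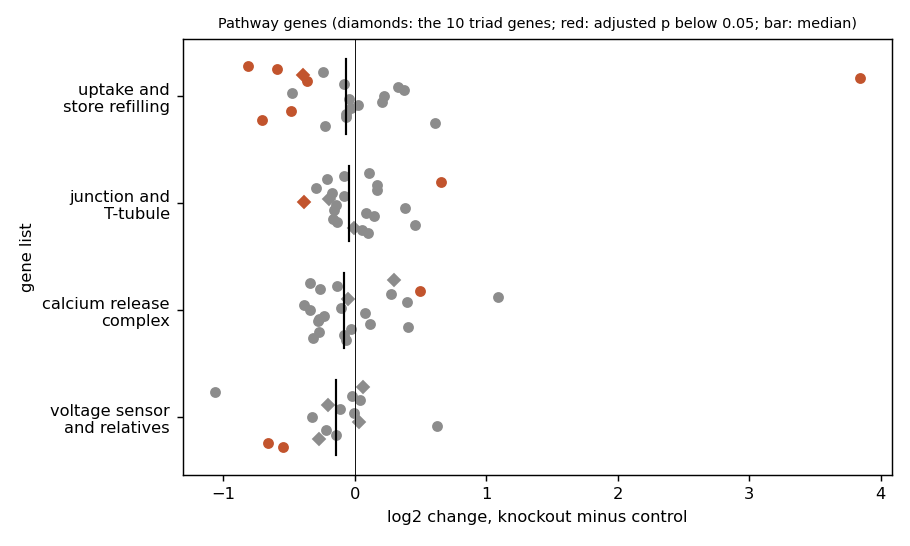
Log2 change (knockout minus control) of each measured gene of 4 pathway lists, with the median of each list as a bar. Diamonds are the 10 triad genes and red marks an adjusted p under 0.05. The 6 lower and 1 higher called genes of uptake and store refilling stand at the top, and Sln lies far to the right of all others.

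Among the 10 genes, knockout replicate 8 was the lowest of the 6 libraries for Ryr1, Cacna1s, Stac3, Jph1, Jph2 and Srl, and knockout replicate 5 was the highest for 4 genes, Ryr1, Cacnb1, Stac3 and Trdn. Summed genes of neonatal and regenerating fibres stood at 43810, 73410 and 124000 in knockout replicates 5, 7 and 8 and between 15040 and 17480 in control libraries. Macrophage genes summed to 3089 in knockout 8, against 947.7 to 1729 in the other 5 libraries. This order of libraries was looked at after the values were seen, and its part in the results was not tested.

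Over the 6 libraries, the deposited log2 values of Jph1 and Srl ran most closely together of all pairs named as most alike (Pearson r = 0.961). Cacna1s was most like Jph1 (r = 0.905), Jph2 was most like Jph1 (0.895) and Ryr1 was most like Cacna1s (0.732). Stac3 was most like Jph2 (0.708), Trdn most like Stac3 (0.662) and Cacnb1 most like Stac3 (0.602), and Cacng1 and Bin1 were most like each other (0.606). Of 4538 other genes that averaged 500 reads or more over the libraries, those most like Srl were Tug1 (r = 0.997), Srsf5, Mmab, Zc3h7b and Tnks2, and those most like Jph1 were Ulk2 (0.998), Caskin2, Efr3a, Asb14 and Smim13. Genes most like the mean of the 10 were Actn3 (0.984), Myom1, Pgm1, Ilrun and Zranb1. These correlations describe 6 points that include the difference between the groups, and libraries share their scaling.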

How the data were processed

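Libraries were made with a directional kit, per the labels' protocols. Per the submitters' processing notes, FastQC 12.0, Trimmomatic 0.39, STAR 2.7.9a and RSEM 1.3.3 were used with GRCm39; their settings, and whether counting used the strand, are not given in the sources used here. The deposited gene table holds log2 values, which proved to be log2 of reads divided by a library factor, plus 4 (whole reads for 100% of values, tolerance 0.01). It also holds the authors' log2 changes and adjusted p-values. Per the file headers, the splicing tables hold rMATS junction counts for 3 unnamed entries per group with a p-value and FDR, and pooled CASH counts. rMATS sample 1 was read as control because its summed exclusion reads equalled the CASH control column for 396 of 2130 exons; the CASH knockout column matched entries 1 and 2 of sample 2 in 596 of 2353 exons, and all 3 entries in 3. It was therefore read as 2 of the 3 knockout libraries.

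Gene tests used limma 3.58.1 (R 4.3.3) on the log2 values as deposited by the authors (mean-variance trend, two-sided, Benjamini-Hochberg over 14619 genes, adjusted p under 0.05). Events with a mean of at least 20 junction reads (18626 of 31476) were tested with limma on the log2 odds of length-scaled counts with 0.5 added. The trend followed the reads of the rarer form, which replaced the planned trend on total reads because that recovered no changed events in simulated data; the closing section gives both. Groups came from the genotype labels. Lengths and exon sequences are from GENCODE M21 (GRCm38), with exons matched by their own and both intron lengths, and no coordinates were converted. A called gene or event has an adjusted p under 0.05, and each pathway list names its called genes and the 3 next by adjusted p. For cell type markers the 2 with the smallest adjusted p are named. A few genes that this rule takes are not reported here. Events named are at most 4 per gene past either threshold, or else that with the smallest p, and likewise in CASH. The genes and lists were chosen with earlier results of these data known. Fits without a library or entry, other scalings, filters, added values and limma-voom were the alternatives. Reads in genes set the depth, and intervals of pooled shares cover counting error only.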

Additional observations from a re-analysis of the deposited data

How the results depend on the processing

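The sign of all 10 log2 changes held in every setting run except for Ryr1, Stac3, Bin1 and Cacnb1 (0.0 without control 3). Leaving out a library gave Ryr1 between -0.209 and 0.083 (above 0 without control 1 or knockout 8), Stac3 between -0.038 and 0.221 (below 0 without knockout 5) and Bin1 between -0.109 and 0.084 (above 0 without control 2, control 3 or knockout 7). Total-read scaling put Bin1 at 0.0. The count of called triad genes was 2, but 0 without the trend and 1 each with limma-voom (Srl) and with 1 added in place of 4 (Srl), and 3 with total-read scaling (Trdn added). It ran from 0 to 2 when a library was left out. Pathway genes called fell from 12 to 2 without the trend, and ran from 1 to 13 when a library was left out. Over all genes, 1645 were called, 792 without the trend, and 477 to 1520 when a library was left out. Triad events called were 2, but 5 with 1 added before the logit, 12 by the deposited FDR, 0 without the trend and 0 with the trend on the total of both forms. That last setting is the one first planned, and the reported calls rest on the trend that replaced it, chosen on simulated data after the data had been seen. Leaving out an entry gave 2 to 4 events. Of all events 482 were called, 0 without the trend, 33 with the trend on the total of both forms, and 300 to 394 when an entry was left out. The Bin1 72-base and Srl exons had adjusted p-values of 0.479 and 0.635 without the trend, 0.377 and 0.562 with the trend on the total, and at most 2.9e-05 and 0.00836 in limma when an entry was left out. The causes were not tested. The planned count-model tests on recovered reads were not run. No paired analysis was possible because the groups share no replicate numbers (1, 2 and 3 against 5, 7 and 8). With 3 libraries a group, the triad genes' standard errors had a median of 0.113 on the log2 scale, which limits what could be called.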
